A study of Mus musculus with 2 samples.

Results

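The genes described here are 10 of the innate cytokine and NF-kB response, taken by symbol from the 32285 gene rows of the count files, and all 10 were found. They are the cytokine genes *Il1b*, *Il1a* and *Tnf*, the chemokine genes *Ccl2*, *Ccl3*, *Ccl4* and *Cxcl10*, the receptor genes *Tlr2* and *Tlr4*, and *Nfkbia*, which encodes an inhibitor of NF-kB. The rule is a list of names with no threshold on a measured value, and it was written with earlier results of these data known. Nuclei came from the brains of male mice, aged 6 to 8 weeks by the labels, while the study's methods give the strain as C57BL/6J and an older age. In the SAH group, subarachnoid haemorrhage was produced by puncturing a vessel from within, and the hemisphere on that side was dissected between the medial prefrontal cortex and the centrolateral nucleus 12 h later. The same region was taken from control mice, which the labels call normal and the paper calls sham, so it is not settled whether they were operated on. The tissue of 3 mice was pooled into 1 library in each group, Normal and SAH, and the mice within a pool cannot be told apart. Because each condition had 1 library, no difference between conditions could be tested, and every value below describes these 2 libraries.

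Damaged cells and blood products are sensed by pattern recognition receptors such as TLR2 and TLR4, which signal through the NF-kB pathway. In resting cells NF-kB is held in the cytoplasm by inhibitory IkB proteins, and once released it switches on genes of cytokines and chemokines together with the gene of its own inhibitor, *Nfkbia*. In the brain, microglia, macrophages at the borders and vascular cells are well-known sites of this response.

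The Normal library held 12204 nuclei and the SAH library 18209, with a median of 7252.5 and 8151 unique molecular identifiers (UMIs, counted molecules) per nucleus. The paper states a larger number of nuclei for the control than for SAH, the reverse of the files. After filters, 10955 Normal and 15536 SAH nuclei were kept and sorted into classes by their own marker genes. Microglia-like nuclei numbered 996 in Normal and 1217 in SAH, border macrophage-like nuclei 20 and 48, and vascular-like nuclei 31 and 33. Oligodendrocyte-like nuclei numbered 1747 and 3489, and neuron-like nuclei 6271 and 7615. No class of astrocytes passed the rule, and 1865 Normal and 3101 SAH nuclei stayed unassigned. The libraries had 78 barcodes in common, of which 2 belonged to Normal and 5 to SAH microglia-like nuclei, and no count of members past 2-fold changed without them. Levels are given as UMIs per 1000000 UMIs of a class (CPM). Brackets hold 95% intervals of the counting error, and differences among mice or libraries are outside them. Intervals of CPM, of ratios and of shares of UMIs take each UMI as independent. They leave out the spread among nuclei, and are too narrow where a few nuclei held many UMIs of a gene. Levels were not ranked between genes, since genes of different length are captured unequally in nuclear RNA.

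Apart from *Nfkbia*, which was spread over glia and neurons, the genes were counted mainly in microglia-like nuclei. Of the UMIs of the other 9 genes in kept nuclei, microglia-like nuclei held 285 of 343 in Normal, 83.1% [78.7, 86.9], and 605 of 836 in SAH, 72.4% [69.2, 75.4]. With *Nfkbia* included, which alone gave 336 of the 679 Normal and 553 of the 1389 SAH UMIs, the shares were 47.1% [43.3, 51.0] and 47.7% [45.1, 50.4]. Border macrophage-like nuclei held 3 of these UMIs in Normal and 30 in SAH, and vascular-like nuclei 5 and 6. Over all kept nuclei, *Ccl2* rested on 5 UMIs in Normal and 112 in SAH, *Ccl4* on 33 and 141, and *Tlr4* on 144 and 337. *Il1b* and *Cxcl10* were close to absent from both libraries, with 4 and 10 UMIs for *Il1b* and 3 and 5 for *Cxcl10*. Gene by gene, microglia-like nuclei did not hold most UMIs of *Cxcl10* in either library. Nor did they in Normal for *Il1b*, with 0 of 4, and *Ccl2*, with 2 of 5.

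**Figure D1:**
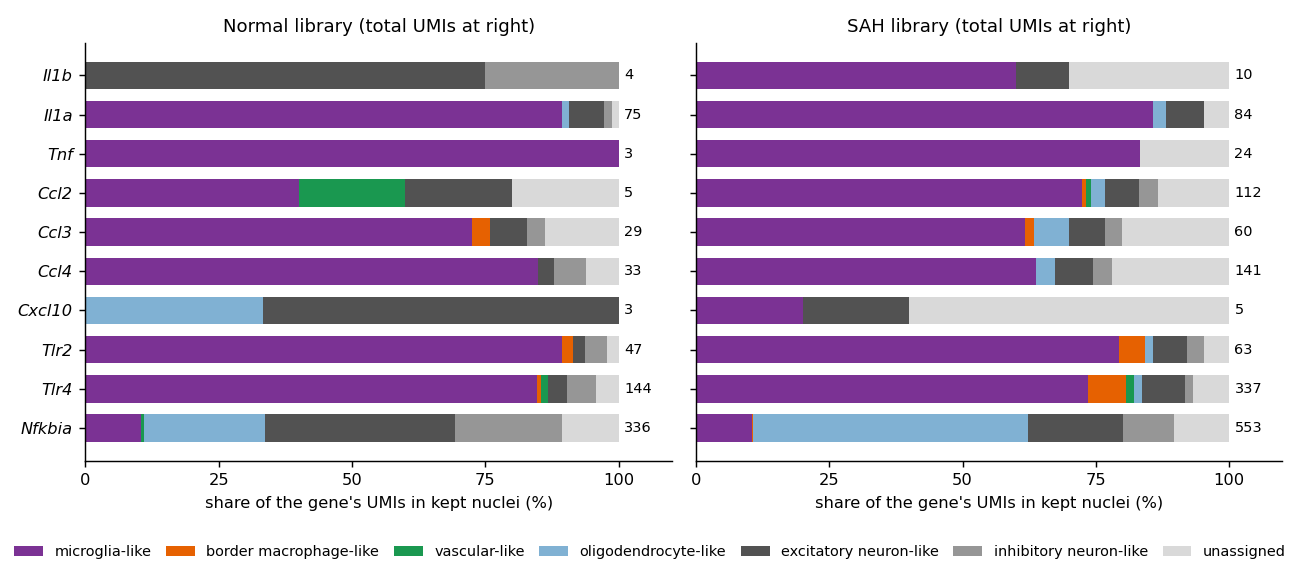
Share of the UMIs of each gene (%, x axis) that lay in each class of nuclei, for the Normal library (left) and the SAH library (right), with the gene's UMIs in all kept nuclei printed at the end of each bar. Microglia-like nuclei hold most UMIs of *Il1a*, *Tnf*, *Ccl3*, *Ccl4*, *Tlr2* and *Tlr4* in both libraries, while *Nfkbia* lies mainly in oligodendrocyte-like and neuron-like nuclei.

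In microglia-like nuclei, 8 of the 10 genes reached the 20 UMIs over both libraries set as the minimum for a comparison, and *Il1b* and *Cxcl10* did not. Past 2-fold higher in SAH were 3 of the 8, *Tnf*, *Ccl2* and *Ccl4*, where 9.13% of all 11827 genes compared in this class were. Among genes in the same range of 20 to 500 UMIs the share was 9.73%. Past 2-fold lower were 0 of the 8, against 7.07% of all genes. The median log2 ratio of SAH over Normal was 0.27 over the 8 genes and -0.003 over all genes compared. Microglia-like nuclei were shallower than neurons, with medians of 1363.5 UMIs in Normal and 1787 in SAH. The nuclei of both libraries lay largely in different clusters: of the Normal nuclei, 965 were in 1 cluster, and of the SAH nuclei, 1045 in another and 135 in a further cluster that is described below. Clusters were made without integration of the libraries, and the part of a library effect in this split was not tested. All 16 microglial marker genes were seen in both libraries. Their summed level, however, was 27962 CPM in Normal and 16471 CPM in SAH, and its part in the results was not tested.

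The cytokine gene *Il1a* encodes interleukin-1 alpha, an alarm cytokine released from damaged cells, and lies at chr2:129299610-129309972 on the minus strand of GRCm38. Microglia-like nuclei held 67 UMIs of *Il1a* in Normal, 45.8 CPM [35.5, 58.2], and 72 in SAH, 31.4 CPM [24.5, 39.5]. The log2 ratio was -0.55 [-1.05, -0.05], so *Il1a* lay at the lower level in SAH without passing 2-fold. It was counted in 62 of 996 Normal nuclei (6.22%) and 64 of 1217 SAH nuclei (5.26%), mostly as 1 UMI per nucleus. A long non-coding gene on the opposite strand, *Gm14023*, overlaps *Il1a* and went from 26 to 132 UMIs in the same nuclei. If the counting did not separate strands, reads of the pair cannot be told apart.

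*Tnf*, which encodes tumour necrosis factor (chr17:35199381-35202007, minus strand), had 3 UMIs in Normal, 2.05 CPM [0.423, 6.00], and 20 in SAH, 8.71 CPM [5.32, 13.5]. The log2 ratio was 2.08 [0.33, 4.48]. The 20 SAH UMIs came from 19 nuclei, so the gene was thinly spread and not carried by a few nuclei. No *Tnf* UMI was found in neuron-like nuclei of either library, which allows at most 0.0382 CPM in Normal and 0.0291 CPM in SAH. *Il1b*, which encodes interleukin-1 beta (chr2:129364570-129371139, minus strand), had 0 UMIs in Normal microglia-like nuclei, which allows up to 2.05 CPM, and 6 in SAH. Those 6 UMIs lay in 3 nuclei and came to 2.61 CPM [0.959, 5.69], an interval that includes the level a count of 0 allows in Normal. A difference in *Il1b* was therefore not detectable at this depth.

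Of the chemokine genes, *Ccl2* differed most between the libraries. It encodes the main attractant of CCR2-bearing monocytes and lies at chr11:82035571-82037453 on the plus strand. Normal microglia-like nuclei held 2 UMIs of *Ccl2*, 1.37 CPM [0.166, 4.94], and SAH nuclei 81, 35.3 CPM [28.0, 43.9], a log2 ratio of 4.69 [2.79, 7.76]. It was counted in 2 of 996 Normal and 35 of 1217 SAH nuclei, 0.201% and 2.88%. In neuron-like nuclei, which were deeper at medians of 10618 and 12363 UMIs, 0.0159% and 0.144% had a *Ccl2* UMI. The SAH signal was concentrated: 14 nuclei held 2 or more UMIs, 1 nucleus held 12, and the 5 nuclei with most UMIs held 44.4% of them. *Gm17268*, an annotated gene on the opposite strand that overlaps *Ccl2*, had 0 UMIs in Normal and 32 in SAH.

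*Ccl3* and *Ccl4* encode closely related chemokines that attract leukocytes and are neighbours on chromosome 11, at chr11:83647844-83649355 on the minus strand and chr11:83662584-83664683 on the plus strand. No stretch of 60 bases in the transcripts of any of the 10 genes was shared with another gene. For *Ccl4* there were 28 UMIs in Normal, 19.2 CPM [12.7, 27.7], and 90 in SAH, 39.2 CPM [31.5, 48.2], a log2 ratio of 1.03 [0.41, 1.70], just past 2-fold. For *Ccl3* there were 21 UMIs in Normal, 14.4 CPM [8.89, 22.0], and 37 in SAH, 16.1 CPM [11.3, 22.2], a log2 ratio of 0.17 [-0.64, 1.01]. By CPM the intervals of the libraries thus lay apart for *Ccl4* and overlapped for *Ccl3*. By nuclei they overlapped for *Ccl4* as well. A *Ccl4* UMI was found in 2.31% [1.47, 3.45] of Normal and 3.29% [2.36, 4.45] of SAH nuclei, and 1 SAH nucleus held 10. The 5 Normal nuclei with most *Ccl3* held 66.7% of its UMIs, and 1 of them held 6. *Cxcl10*, which encodes an interferon-inducible ligand of CXCR3 (chr5:92346638-92348889, minus strand), had 0 UMIs in Normal and 1 in SAH, too few for a ratio.

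The 2 receptor genes lay on opposite sides, *Tlr4* higher and *Tlr2* lower in SAH, and neither passed 2-fold. *Tlr4* encodes the receptor for endotoxin and several molecules from damaged tissue and spans chr4:66827584-66930284 on the plus strand. It had 122 UMIs in Normal, 83.5 CPM [69.3, 99.7], and 248 in SAH, 108 CPM [95.0, 122], a log2 ratio of 0.37 [0.05, 0.70]. *Tlr2*, whose product pairs with TLR1 or TLR6 to bind lipoproteins (chr3:83836272-83841767, minus strand), had 42 UMIs in Normal, 28.7 CPM [20.7, 38.8], and 50 in SAH, 21.8 CPM [16.2, 28.7], a log2 ratio of -0.40 [-1.02, 0.23]. The intervals of the levels overlapped for both genes. *Tlr4* was counted in 10.4% of Normal and 15.6% of SAH nuclei, and in 0.175% and 0.381% of neuron-like nuclei. With each nucleus thinned to 500 UMIs the shares were 4.32% [3.14, 5.77] and 5.01% [3.85, 6.39], whose intervals overlapped. *Nfkbia* lay at the same level in both libraries within counting error, with 35 UMIs in Normal, 23.9 CPM [16.7, 33.3], and 58 in SAH, 25.3 CPM [19.2, 32.7].

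**Figure D2:**
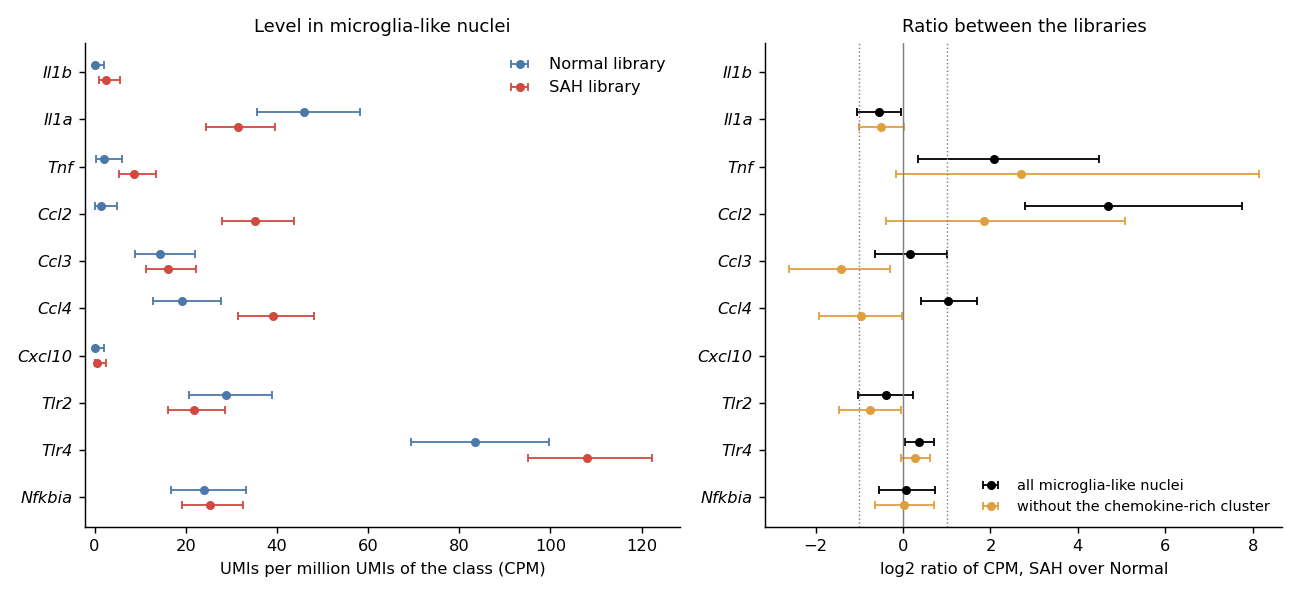
Left, level of each gene in microglia-like nuclei (CPM, x axis) in the Normal library (996 nuclei) and the SAH library (1217 nuclei). Right, log2 ratio of SAH over Normal for the 8 genes with at least 20 UMIs, over all microglia-like nuclei (black) and without the chemokine-rich cluster (orange). Points are values, bars are 95% counting intervals (up to 3 counts where a gene was at 0) and dotted lines mark 2-fold. *Ccl2* stands furthest to the right, and *Ccl4* changes sides when the cluster, which was chosen for its chemokine UMIs, is left out.

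Most chemokine UMIs of the SAH microglia-like nuclei lay in a cluster of 135 nuclei, 11.1% of them. The 10 genes were left out of the features used for clustering. Among the largest microglia clusters, this one was singled out afterwards for most *Ccl2*, *Ccl3* and *Ccl4* UMIs per SAH nucleus. High levels of these genes there follow from that choice, and the values below are a description. These 135 nuclei held 71 of the 81 *Ccl2* UMIs, 72 of the 90 *Ccl4* UMIs, 26 of the 37 *Ccl3* UMIs and 11 of the 20 *Tnf* UMIs. *Ccl2* reached 259 CPM [202, 326] there and 5.07 CPM [2.43, 9.32] in the main SAH cluster, and *Ccl4* 262 CPM [205, 330] and 9.12 CPM [5.41, 14.4]. A *Ccl2* UMI was found in 20.7% [14.3, 28.6] of these nuclei and in 0.670% [0.270, 1.38] of the main SAH cluster. So most of these nuclei, too, had no *Ccl2* UMI.

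The other genes were divided more evenly. *Tlr2* lay at 61.9 CPM [36.1, 99.1] in the chemokine-rich nuclei and 16.2 CPM [11.1, 22.9] in the main SAH cluster, *Tlr4* at 149 CPM [107, 203] and 103 CPM [89.7, 119], and *Nfkbia* at 36.4 CPM [17.5, 67.0] and 24.3 CPM [17.9, 32.3]. *Il1a* was at 25.5 CPM [10.2, 52.5] and 31.9 CPM [24.5, 40.9], and all 6 *Il1b* UMIs were in the main SAH cluster. Beside *Ccl2*, *Ccl3* and *Ccl4*, for which they were chosen, the chemokine-rich nuclei stood apart by *Tnf*, with *Tlr2* at an intermediate distance.

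Setting the main SAH cluster beside the main Normal cluster gave another picture. *Ccl3* lay at 14.8 CPM [9.17, 22.6] in the Normal nuclei and 5.58 CPM [2.78, 9.98] in the SAH nuclei, and *Ccl4* at 17.6 CPM [11.4, 26.0] and 9.12 CPM [5.41, 14.4]. *Ccl2* was at 1.41 CPM [0.171, 5.09] and 5.07 CPM [2.43, 9.32]. Without the chemokine-rich cluster in either library, the log2 ratio of the class was -1.41 [-2.61, -0.29] for *Ccl3* and -0.95 [-1.91, -0.02] for *Ccl4*, in place of 0.17 and 1.03. This took out 135 SAH and 12 Normal nuclei. As the cluster was chosen for its chemokine UMIs in SAH, lower chemokine ratios without it are built into the choice. Past 2-fold higher were then 0 of the 6 genes that still had 20 UMIs, against 8.34% of all genes, and past 2-fold lower was 1, *Ccl3*, against 7.13%. *Ccl2* and *Tnf* then fell below 20 UMIs. *Ccl2* rested on 2 Normal and 10 SAH UMIs, at 1.84 [-0.39, 5.07]. *Tnf* rested on 1 and 9, at 2.69 [-0.16, 8.14], so its ratio was no smaller without the cluster but too thinly counted for a call.

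**Figure D3:**
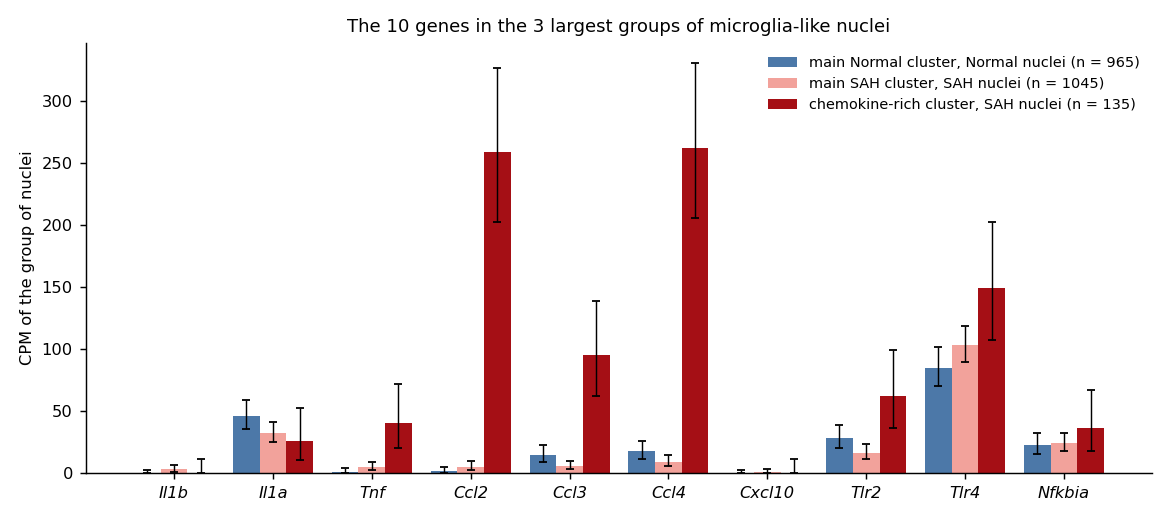
Level of each gene (CPM, y axis) in the 965 Normal nuclei of the main Normal cluster, the 1045 SAH nuclei of the main SAH cluster and the 135 SAH nuclei of the chemokine-rich cluster. Bars are levels and error bars 95% counting intervals (up to 3 counts where a gene was at 0). *Ccl2*, *Ccl3* and *Ccl4*, for which the cluster was chosen, are highest in the chemokine-rich nuclei, and so is *Tnf*. *Tlr2*, *Tlr4* and *Nfkbia* are highest there as well, each with an interval that overlaps that of another group. *Il1a* is not highest there.

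The cluster as a whole held 233 SAH and 39 Normal nuclei, 1.5% and 0.356% of those kept, and it also contained the 48 SAH and 20 Normal border macrophage-like nuclei. Over all its nuclei it held 84 of the 112 *Ccl2* UMIs of the SAH library, 75.0% [65.9, 82.7], and 99 of the 141 *Ccl4* UMIs, 70.2% [61.9, 77.6]. Another 49 of its SAH nuclei were unassigned, and they held 12 *Ccl2*, 10 *Ccl3* and 27 *Ccl4* UMIs. The border macrophage-like nuclei held 1, 1 and 0. The chemokine UMIs of this cluster thus lay in microglia-like and unassigned nuclei.

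Because blood cells enter the brain after haemorrhage, marker lists of leukocytes were read in the same nuclei. In the 135 chemokine-rich nuclei the summed microglial markers lay at 11871 CPM, against 16971 CPM in the main SAH cluster, and the border macrophage list at 426 CPM against 375 CPM. The neutrophil list lay at 142 CPM against 327 CPM. Over all microglia-like nuclei nearly all of it was *Csf3r*, with 844 of 844 UMIs in Normal and 687 of 707 in SAH. Of the 10 neutrophil markers, 1 was seen in Normal and 6 in SAH, so the others that were seen were counted in SAH only. *Ly6g*, *Retnlg*, *Mmp8* and *Ltf* were at 0 in both libraries. The monocyte list lay at 222 CPM against 66.9 CPM. Over all SAH microglia-like nuclei its UMIs were mostly *Fn1*, with 171 in SAH and 0 in Normal, while *Ly6c2* was at 0 in both and *Ccr2* had 11 and 6 UMIs. The lymphocyte list held 2 UMIs in the chemokine-rich nuclei. The median doublet score was 0.0149 in these nuclei and 0.00723 in the main SAH cluster. The part of other cells or of doublets in the chemokine values was not tested.

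The chemokine genes were often counted in the same nuclei. In SAH, 71 microglia-like nuclei had a UMI of *Ccl2*, *Ccl3* or *Ccl4*, 26 of them of at least 2 of these genes and 4 of all 3. In Normal there were 33 such nuclei, 3 with at least 2 genes and 1 with all 3. Of the 26 SAH nuclei with *Ccl3*, 13 also had *Ccl4*, and of the 35 with *Ccl2*, 13 had *Ccl4*. The nuclei with a chemokine UMI were deeper in SAH, at a median of 2275 UMIs against 1777 in those without, and close together in Normal, at 1370 and 1361. *Tnf* shared 6 of its 19 SAH nuclei with *Ccl2*, and *Nfkbia* none with *Tnf*. No member was counted in 75.9% of Normal and 70.3% of SAH nuclei, and 3 or more were counted in 4 Normal and 26 SAH nuclei.

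In border macrophage-like nuclei *Tlr4* was the only one of the 10 genes to reach 20 UMIs. In SAH its CPM lay above that of all microglia-like nuclei. The 12 markers of this class summed to 17899 CPM in Normal and 18722 CPM in SAH, above the microglial list at 8109 CPM and 4572 CPM. *Tlr4* had 1 UMI in the 20 Normal nuclei and 24 in the 48 SAH nuclei, 37.4 CPM [0.946, 208] and 236 CPM [151, 351]. The log2 ratio was 2.66 [0.04, 8.02] on a background in which the median of all genes compared was 0.20, and 21.7% of genes passed 2-fold higher. Within SAH this level lay above the 108 CPM [95.0, 122] of all microglia-like nuclei, without overlap of the intervals. In Normal the intervals overlapped. Within SAH the interval did overlap that of the 135 microglia-like nuclei of the chemokine-rich cluster, at 149 CPM [107, 203]. By nuclei, a *Tlr4* UMI was found in 29.2% [17.0, 44.1] of border macrophage-like and 15.6% [13.6, 17.8] of microglia-like SAH nuclei, and these intervals overlapped. *Ccl4* had 0 UMIs in the SAH nuclei, which allows up to 29.5 CPM at the 3 counts set for a 0. All SAH microglia-like nuclei were at 39.2 CPM [31.5, 48.2], but those of the main SAH cluster at 9.12 CPM [5.41, 14.4]. No difference in *Ccl4* between the 2 classes was therefore called. The other genes had between 0 and 3 UMIs per library. The Normal class held 26762 UMIs in all, so that a count of 0 there allows up to 112 CPM.

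Vascular-like nuclei, of which 18 Normal and 23 SAH nuclei carried leptomeningeal fibroblast markers, 10 and 9 endothelial markers, and 3 and 1 mural markers, held few UMIs of these genes. The endothelial list summed to 3885 CPM in Normal and 4504 CPM in SAH, and the astrocyte list was also present, at 1558 CPM and 2852 CPM. *Tlr4* had 2 UMIs in Normal and 5 in SAH, *Nfkbia* 2 and 0, and *Ccl2* 1 and 1. The other 7 genes were at 0 in both libraries. Counts of 0 in this class allow up to 31.6 CPM in Normal and 42.4 CPM in SAH, and most of these genes stood below that in microglia-like nuclei. A vascular response could therefore not be measured at this depth.

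*Nfkbia* was the one gene spread over most classes. In Normal its order was 23.9 CPM [16.7, 33.3] in microglia-like, 21.1 CPM [2.55, 76.1] in vascular-like, 20.2 CPM [15.9, 25.3] in oligodendrocyte-like, 3.03 CPM [2.35, 3.85] in inhibitory and 2.13 CPM [1.76, 2.54] in excitatory neuron-like nuclei. The intervals of the first 3 overlapped, as did those of the 2 neuronal classes. Those of microglia-like and oligodendrocyte-like nuclei lay above both neuronal ones, while the vascular-like interval overlapped the inhibitory one. The share of Normal nuclei with an *Nfkbia* UMI differed less. It was 3.41% in microglia-like, 4.12% in oligodendrocyte-like, 2.89% in inhibitory and 2.74% in excitatory neuron-like nuclei. Neuron-like nuclei were deeper, which raises the share of nuclei with a UMI at a given CPM. In SAH, oligodendrocyte-like nuclei came first, at 33.8 CPM [30.0, 37.9], before microglia-like nuclei at 25.3 CPM [19.2, 32.7], whose interval overlapped. The gene lies at chr12:55489410-55492647 on the minus strand.

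Between the libraries, *Nfkbia* was higher in SAH oligodendrocyte-like nuclei and lower in SAH neurons, though under some alternatives the intervals reached 0. With oligodendrocyte-like nuclei thinned to 500 UMIs the log2 ratio was 0.54 [-0.20, 1.33]. Oligodendrocyte-like nuclei held 76 UMIs in Normal and 285 in SAH, a log2 ratio of 0.74 [0.37, 1.13], below 2-fold, where 10.6% of 13633 genes passed 2-fold higher and 7.12% lower. These nuclei, too, lay mostly in separate clusters. In the 2 main Normal clusters the level was 23.3 CPM [17.2, 30.9] and 22.0 CPM [14.4, 32.2], and in the 2 main SAH clusters 38.7 CPM [33.0, 45.1] and 28.4 CPM [22.4, 35.6]. In the cluster that both libraries shared, with 99 Normal and 199 SAH nuclei, it was 4.47 CPM [0.541, 16.1] and 25.9 CPM [16.1, 39.7], on 2 and 21 UMIs. The summed oligodendrocyte markers lay at 30067 CPM in Normal and 17432 CPM in SAH, and their part was not tested.

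In excitatory neuron-like nuclei 120 *Nfkbia* UMIs were counted in Normal and 99 in SAH, at a log2 ratio of -0.72 [-1.12, -0.32]. Inhibitory neuron-like nuclei held 67 and 53, at -0.59 [-1.14, -0.05], where the median of all genes was -0.15. Relative to that median the inhibitory value was -0.44. In neither class did it pass 2-fold, where 4.88% and 5.23% of genes were past 2-fold lower and 10.3% and 7.55% past 2-fold higher. With the stricter gate the excitatory value was -0.47 [-0.98, 0.04] and the inhibitory value -0.525 [-1.08, 0.03].

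**Figure D4:**
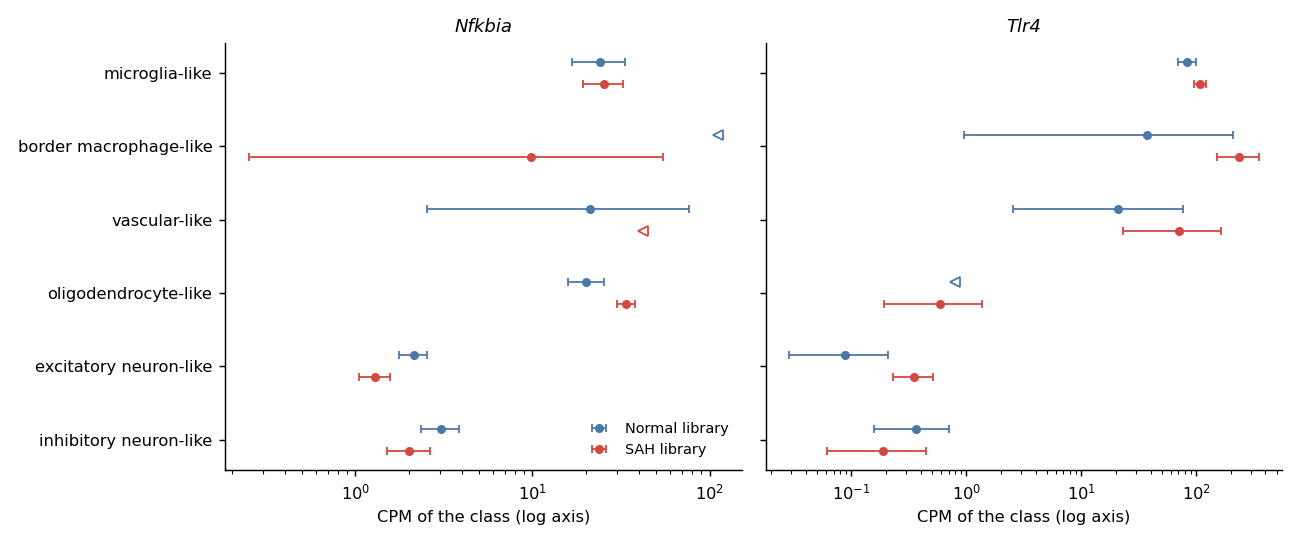
Level of *Nfkbia* (left) and *Tlr4* (right) in 6 classes of nuclei (CPM, log axis) in the Normal and SAH libraries. Points are levels with 95% counting intervals, and open triangles mark the highest level that a count of 0 allows. *Nfkbia* is highest in glia and lies higher in SAH than in Normal in oligodendrocyte-like nuclei, while *Tlr4* is highest in microglia-like and border macrophage-like nuclei.

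Neuron-like nuclei were read as a class to compare with microglia-like nuclei. Whether their values are a background of the method was not tested. In Normal, the levels of *Il1a*, *Ccl2*, *Ccl3*, *Ccl4*, *Tlr2* and *Tlr4* in microglia-like nuclei were 107 to 752 times those in neuron-like nuclei, and in SAH 269 to 538 times. For *Nfkbia* the ratio was 10.1 in Normal and 17.1 in SAH. The lowest Normal value, 107, is that of *Ccl2* and rested on 2 microglial UMIs and 1 neuronal UMI. Neuron-like nuclei were deeper, which raises the share of nuclei with a UMI at a given CPM, so shares of nuclei lay closer together. For *Ccl2* these were 0.201% in microglia-like and 0.0159% in neuron-like nuclei of Normal, and 2.88% and 0.144% in SAH. Neuron-like nuclei held 1 *Ccl2* UMI in Normal and 11 in SAH, 3 and 15 *Ccl4* UMIs, and 13 and 32 *Tlr4* UMIs. In excitatory neuron-like nuclei *Tlr4* went from 5 to 27 UMIs, 0.0887 CPM [0.0288, 0.207] and 0.353 CPM [0.232, 0.513], a log2 ratio of 1.99 [0.59, 3.72], where 10.3% of genes passed 2-fold higher. With the stricter gate on nuclei it was 1.01 [-0.44, 2.66]. In inhibitory neuron-like nuclei *Tlr4* went from 8 to 5 UMIs, at -0.93 [-2.89, 0.86], and over all neuron-like nuclei its log2 ratio was 0.91 [-0.06, 1.96]. Over all neuron-like nuclei that of *Ccl2* was 3.07 [0.29, 8.50] and that of *Ccl4* 1.93 [0.11, 4.36]. The ratios of *Ccl2* and *Ccl4* leaned to SAH, but both genes had fewer UMIs in neurons than the minimum set for a comparison. No difference between the libraries was therefore called for them there. Their levels in neurons were a small fraction of the microglial level. *Tlr4* did not differ beyond counting error over all neurons, and *Tnf* was not counted there. Whether these UMIs are free RNA was not tested.

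The sequence before the gene starts was read for the NF-kB binding motif, the kB consensus of 10 bases, searched on both strands in the 250 bases upstream of the RefSeq start on GRCm38.p6. Windows were in the table for 7 of the genes, and not for *Ccl2*, *Ccl4* and *Tlr4*. Of the 7 windows, 3 held the motif, against 3.90% of all 32851 windows. *Nfkbia* had 1 match, beginning 29 bases before the start. *Cxcl10* had 2, beginning 159 and 103 bases before it. *Tlr2* had 2 that overlap, beginning 173 and 172 bases before it. The windows of *Il1b*, *Il1a*, *Tnf* and *Ccl3* held none, which says only that these letters are not in the window. The windows of *Nfkbia* and *Cxcl10* are shown as the ones with a match, in capitals, and that of *Tnf* as the gene past 2-fold whose window was in the table. They lie at chr12:55492648-55492897, chr5:92348890-92349139 and chr17:35202008-35202257, all on the minus strand, and are written 5′ to 3′ along the gene.
Nfkbia promoter: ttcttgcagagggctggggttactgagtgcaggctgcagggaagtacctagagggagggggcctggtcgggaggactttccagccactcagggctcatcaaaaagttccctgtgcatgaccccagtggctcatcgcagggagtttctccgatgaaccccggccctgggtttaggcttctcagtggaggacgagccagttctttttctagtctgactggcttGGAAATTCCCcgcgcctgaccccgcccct
Cxcl10 promoter: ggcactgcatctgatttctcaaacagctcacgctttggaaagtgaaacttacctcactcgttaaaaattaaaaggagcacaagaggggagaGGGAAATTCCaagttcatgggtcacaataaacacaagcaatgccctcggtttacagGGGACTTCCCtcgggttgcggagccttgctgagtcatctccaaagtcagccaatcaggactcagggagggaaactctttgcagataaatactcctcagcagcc
Tnf promoter: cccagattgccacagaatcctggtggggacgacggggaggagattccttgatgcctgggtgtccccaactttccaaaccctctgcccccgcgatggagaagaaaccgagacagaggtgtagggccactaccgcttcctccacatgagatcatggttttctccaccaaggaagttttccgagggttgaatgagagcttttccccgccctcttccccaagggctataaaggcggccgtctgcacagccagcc

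The wider pathway was read from 9 lists with 114 genes in all, of which 79 reached 20 UMIs in microglia-like nuclei. Past 2-fold higher in SAH were 13, past 2-fold lower 4, and 62 lay between, with a median log2 ratio of 0.05. That is 16.5% higher, against 9.13% of all genes in the class, and 5.06% lower, against 7.07%. The genes past 2-fold were found in several lists and did not fill any of them.

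Among inhibitors of the pathway, 3 of the 10 compared were past 2-fold higher and 0 lower. *Il1r2*, which encodes a decoy receptor for interleukin-1, had 3 UMIs in Normal and 82 in SAH, at 4.12 [2.52, 6.43]. *Socs3*, a feedback inhibitor of cytokine receptor signalling, had 1 and 36, at 4.52 [1.95, 9.86]. *Irak3*, an inhibitory kinase of TLR signalling, had 8 and 34, at 1.44 [0.30, 2.76]. These genes thus lay on the same side as *Ccl2* and *Tnf*, while *Nfkbia* did not differ beyond counting error.

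Of the 13 NF-kB subunits and IkB proteins, 1 was higher and 1 lower. *Bcl3*, which encodes an atypical IkB protein that acts in the nucleus, had 0 UMIs in Normal and 50 in SAH, at least 10.6-fold higher, counted against 3 UMIs for Normal. *Nfkbib*, which encodes IkB beta, had 15 and 9, at -1.39 [-2.76, -0.10]. *Nfkb2*, the gene of the p100 subunit, had 13 and 12, at -0.77 [-2.03, 0.48]. Of the 26 receptors and adaptors compared, 2 were past 2-fold higher and 0 lower. These were *Il1r1*, the signalling receptor for interleukin-1, with 3 and 21 UMIs at 2.16 [0.41, 4.54], and *Tlr13*, a sensor of bacterial RNA, with 63 and 236 at 1.25 [0.85, 1.68]. *Tlr7*, a sensor of single-stranded RNA, had 403 and 1118, at 0.82 [0.65, 0.99].

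The other cytokines and chemokines went both ways, with 3 of 10 higher and 3 lower. *Spp1*, which encodes osteopontin, had 12 UMIs in Normal and 476 in SAH, at 4.66 [3.84, 5.62], and 441 of the 476 were in the 135 chemokine-rich nuclei. *Csf1*, a growth factor of macrophages and microglia, had 12 and 113, at 2.58 [1.72, 3.58]. *Ccl9*, another chemokine gene, had 46 and 20, at -1.85 [-2.69, -1.07].

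Of the remaining lists, 2 of 7 immediate early genes were higher. *Atf3* had 2 and 24 UMIs, at 2.93 [0.92, 6.06], and *Ier2* had 6 and 34, at 1.85 [0.58, 3.39], while *Junb* had 51 and 48, at -0.74 [-1.34, -0.14]. Of 2 chemokine receptors compared 1 was past 2-fold higher, *Ccr1*, with 10 and 40 UMIs at 1.35 [0.32, 2.51]. Of 4 interferon response genes 1 was past 2-fold, *Usp18*, with 5 and 16 UMIs at 1.03 [-0.49, 2.83]. None of the 6 inflammasome genes passed 2-fold. *Pycard*, which encodes the inflammasome adaptor ASC, had 144 and 130 UMIs, at -0.80 [-1.15, -0.45], and *Gsdmd*, the pore-forming effector, 100 and 92, at -0.77 [-1.20, -0.35]. *Casp1* had 35 and 39, at -0.50 [-1.19, 0.21]. *Icam1*, the 1 endothelial target gene compared in this class, had 93 and 93, at -0.65 [-1.08, -0.22].

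In border macrophage-like nuclei 7 genes of the lists could be compared and in vascular-like nuclei 2. *Spp1* had 0 and 64 UMIs in border macrophage-like nuclei, at least 5.61-fold higher, and 19 and 43 in vascular-like nuclei, at 1.60 [0.79, 2.46]. *Vcam1*, an adhesion molecule, had 13 and 14 UMIs in border macrophage-like nuclei, at -1.82 [-3.02, -0.61]. *Cyld* was at -1.12 [-2.47, 0.34] and *Tab2* at -1.02 [-2.35, 0.43] there. Past 2-fold lower in this class were 9.83% of 1505 genes, and past 2-fold higher in vascular-like nuclei 14.3% of 1781 genes.

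For the 3 members with most UMIs, the genes of most similar level over the 7 classes in both libraries were found by Pearson's r of log2(CPM + 10) over 14 points, among genes with at least 200 UMIs. The points of 1 library share its depth and its free RNA. Outside microglia-like nuclei the counted level of *Ccl4* lay far below the 10 CPM added, so its r rested on the microglia-like points. For *Nfkbia* these were *Etfbkmt* (0.909), *Ssr1* (0.904) and *Cd82* (0.904), for *Tlr4* *Sp100* (0.978), *Baz1a* (0.974) and *Msn* (0.969), and for *Ccl4* *Gngt2* (0.999), *Gm50035* (0.997) and *Spint1* (0.996). *Tlr4*, too, lay far below the 10 CPM added in oligodendrocyte-like and neuron-like nuclei. Its r rested on the microglia-like, border macrophage-like and vascular-like points. Of these, the Normal border macrophage-like point held 1 UMI and the vascular-like points 2 and 5.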

How the data were processed

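The deposited files held UMI counts, which the authors made from 10x Genomics 3′ libraries with Cell Ranger on mm10, intronic reads included and without normalization. The study's methods and the file headers give version 6.1.2, and the submitters' processing notes version 5.0.0. Nuclei within the study's limits (300 to 7000 genes, under 10% mitochondrial, 3% haemoglobin and 100000 UMIs) were kept. The highest Scrublet scores (scanpy 1.11.5) were removed at 0.8% per 1000 nuclei, 1178 in Normal and 2644 in SAH, in place of DoubletFinder.

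A glial or vascular nucleus took a class from at least 3 of its markers, with a lead of 3 times over other such classes. It needed 60 (microglia, oligodendrocytes) or 20 (other classes) marker UMIs per 10000. Between microglia and border macrophages no such lead was asked, and the larger share decided. Neurons were named among nuclei that passed no such rule, without a minimum per 10000. Inhibitory neurons needed only 2 markers. Markers were used if at least 20 times higher in nuclei rich in the others. This rule was set after the data were seen and replaced a version with a lower factor, which named a neuronal cluster after oligodendrocyte precursors. The members and lists were chosen with earlier results of these data known. Clusters (2000 features without the 10 genes, 25 components, resolution 2) were descriptive. They were made on both libraries together without integration, which the study's methods used.

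UMIs were summed per class and library, and genes with at least 20 UMIs were compared and called past 2-fold. Intervals at 95% were exact Poisson for CPM, exact binomial for shares and exact conditional binomial for ratios. A count of 0 was set to 3. In simulated microglia-like counts with 200 changed genes they held the true ratio for 96.2% of 11571 genes. All members are reported. Of each pathway list, up to 3 genes with the largest log2 ratio in microglia-like nuclei are named, and up to 5 over all lists in the border macrophage-like and vascular-like classes. A few genes that this rule or the marker lists would name are not reported here. Positions are from GENCODE M21 and promoters from RefSeq. Alternatives were other filters on nuclei, a stricter gate, clusters in its place, thinned nuclei, centred ratios, and other minimums and folds. Python 3.11.15 was used with scipy 1.17.1, numpy 2.4.6, scikit-learn 1.9.0 and pandas 2.3.3. Other experiments of the study were not analysed here.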

Additional observations from a re-analysis of the deposited data

How the results depend on the processing

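Counts of members past 2-fold in microglia-like nuclei were 3 higher and 0 lower with no removal of doublets, no filter on nuclei, the limits of 500 to 6000 genes, clusters in place of the gate, centred ratios, a minimum of 10 UMIs, a fold of 1.5, and, added after seeing the data, the unassigned nuclei of the microglia clusters put in or shared barcodes left out. A stricter gate left 1 higher (*Ccl2*), as *Tnf*, at 3.24, fell below 20 UMIs and *Ccl4* came to 0.37 [-0.38, 1.14] on 26 and 39 UMIs. *Ccl2* was then at 3.54 [1.55, 6.66] on 2 Normal and 27 SAH UMIs. With the reported gate these were 2 and 81 for *Ccl2* and 28 and 90 for *Ccl4*. So most SAH UMIs of both genes lay in nuclei that the stricter gate did not take as microglia-like. Nuclei thinned to 500 UMIs also left 1 (*Ccl4*), as *Ccl2* and *Tnf* fell below 20 UMIs. A minimum of 50 UMIs left 2. Leaving out the chemokine-rich cluster gave 0 higher and 1 lower and turned *Ccl4* to -0.95. That cluster was chosen for its chemokine UMIs in SAH after seeing the data. Without it, *Ccl2* and *Tnf* fell below 20 UMIs. The median log2 ratio of the members, 0.27, ranged from -0.63 without that cluster to 0.49 with clusters in place of the gate, and was -0.04 with the stricter gate and -0.29 in thinned nuclei. The share of member UMIs in microglia-like nuclei was 42.5% in Normal and 40.0% in SAH with doublets kept and 42.4% and 39.9% with no filter. For SAH it was 29.7% with the stricter gate and 54.9% with clusters, against 47.7%. Of 111 values of single members in a class under an alternative, 105 stayed within the interval of the reported value, and in thinned nuclei *Ccl2*, at 2.62, left it. Besides *Ccl4*, signs changed for *Ccl3*, from 0.17 to -0.22 with the stricter gate, -0.12 in thinned nuclei and -1.41 without the cluster, and for *Nfkbia* in microglia-like nuclei, from 0.08 to -0.04 with the stricter gate and -0.61 in thinned nuclei. *Tlr4* in border macrophage-like nuclei had 0 Normal and 8 SAH UMIs once thinned, too few for a ratio. No paired analysis was possible because each group has 1 library and the labels give no replicate numbers. With 1 library a group, no value carries an error between mice, and a pool of 3 mice does not show whether the chemokine-rich nuclei came from all of them.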

Other observations

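In oligodendrocyte-like nuclei, the class with most *Nfkbia* in SAH, 55 genes of the pathway lists reached 20 UMIs, and 10 of them were past 2-fold higher in SAH and 0 lower, against 10.6% and 7.12% of all genes. Of 8 inhibitors, 4 were past 2-fold higher. *Socs3* had 2 UMIs in Normal and 46 in SAH, at 3.36 [1.43, 6.45]. *Zfp36*, which encodes a protein that destabilises cytokine messenger RNAs, had 6 and 59, at 2.13 [0.93, 3.64]. *Il1r2* had 5 and 43, at 1.94 [0.61, 3.63], and *Otulin*, a deubiquitinase that restrains NF-kB signalling, had 293 and 1487, at 1.18 [1.00, 1.36]. *Bcl3*, at 0 in Normal, had 147 UMIs in SAH, at least 21.9-fold higher, counted against 3 UMIs. The cytokine and chemokine members themselves had between 0 and 5 UMIs per library in this class. These genes were named because they passed 2-fold, after their values were seen.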
